A study of Mus musculus with 15 samples.

Results

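Hoxb8, Hoxa7, Hoxa9, Hoxa10, Meis1, Pbx3, Hlf and Myb were followed in 15 libraries of mouse hematopoietic progenitors that had been immortalized with Hoxb8. These 8 genes are transcription factors tied to the immortalization of blood progenitors; they were chosen by symbol among the 55359 genes of the tables, and all 8 were present. The cells came from fetal liver and were kept in medium with β-estradiol. The heterozygous line (hi-Ddx41+/-) received a retrovirus with DDX41 R525H (Het R525H), DDX41 G173R (Het G173R), wild-type DDX41 (Het DDX41) or no insert (Het empty), and the line with both copies of Ddx41 (hi-Ddx41+/+) received the virus with no insert (WT empty). Cells were sorted for GFP after 2 days of infection, and each group holds 3 libraries numbered 1 to 3. Each genotype is represented by 1 line, and the effect of the missing Ddx41 copy and any other trait of that line cannot be told apart. Whether libraries of a group stem from different cultures is not stated, so the spread behind each p-value may be technical.

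Hox proteins bind DNA through the homeodomain, which is encoded by the homeobox. Meis and Pbx proteins belong to the TALE class of homeodomain proteins and bind DNA together with Hox proteins. Enforced Hoxb8 or Hoxa9 holds myeloid progenitors in a dividing, immature state, and Hoxa9 with Meis1 drives leukemia in mice. Hlf, a basic leucine zipper factor, marks stem cells and early progenitors and also immortalizes progenitors when enforced, while Myb is needed for the growth of immature blood cells. In Hoxb8-immortalized lines of this kind the factor is commonly supplied as a fusion to the hormone-binding part of the estrogen receptor, which keeps it active only while estradiol is in the medium.

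Libraries held 22104066 to 49145873 expected counts. Ddx41 averaged 32.2 ± 3.2 CPM (counts scaled by library total with edgeR's TMM factors) over the heterozygous libraries and 59.3 ± 3.95 CPM in WT empty (SD, n = 12 and 3; log2 -0.88, adjusted p = 1.01e-05), and all 12 heterozygous libraries were below all 3 of WT empty. The names of 12 deposited files, all of the heterozygous line, carry another group code than the sample title: those titled Het G173R carry the code that titles use for the empty vector, and those titled Het R525H the one for wild-type DDX41. Groups here follow the titles. Comparisons between heterozygous groups and of Het empty with WT empty rest on them; the mean of the 4 heterozygous groups against WT empty does not. In a fit with group and number as terms, 6707 of 14548 tested genes differed between libraries numbered 3 and those numbered 1 and 2. That fit pooled all groups, and no group was tested alone. What a number stands for is not stated.

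Hoxb8 was the only Hox gene with more than a trace of RNA, and no difference in its level between the lines passed the test. It lies at chr11:96279401-96285325 (RefSeq annotation of GRCm38.p6), in the Hoxb cluster. Its TPM, which scales counts by transcript length so that genes can be compared, ranged from 23.1 to 45.1 over the 15 libraries with a median of 33.4. Hoxb8 took 14798 of the reads assigned to the 39 Hox genes, and the other 38 shared 363.29, so that 97.6 percent fell to Hoxb8. No other Hox gene reached 1 TPM in any library; the highest value was 0.32 TPM, for Hoxc5. No count fell on any of the other 9 Hoxb genes, including Hoxb7 and Hoxb9, which flank Hoxb8 in the cluster, whereas 8 of 11 Hoxa genes had at least 1 count somewhere.

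**Figure D1:**
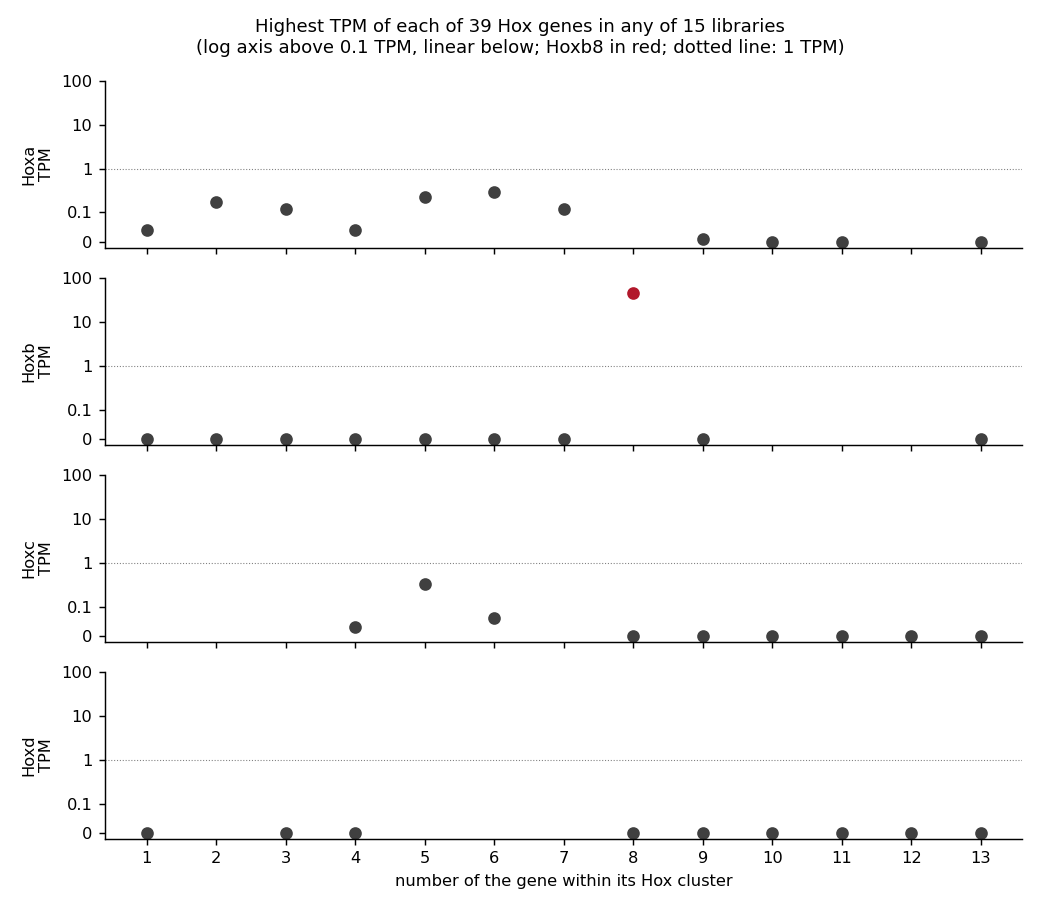
Highest TPM of each of 39 Hox genes in any of 15 libraries, by cluster and by the number of the gene in it (vertical axis logarithmic above 0.1 TPM and linear below). Hoxb8 in red reached 45.1 TPM; no other gene reached the dotted line at 1 TPM.

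Hoxa7, Hoxa9 and Hoxa10, the members of the Hoxa cluster that are active in many leukemias, were at or near 0. Hoxa7 (chr6:52215623-52218573) had 0 to 8 expected counts per library and 39.83 in all, with at most 0.12 TPM. By library, it had 2.09, 1 and 0 counts in Het R525H, 0, 3 and 8 in Het G173R, 4.76, 4 and 5.24 in Het DDX41, 2, 6 and 2.74 in Het empty, and 1, 0 and 0 in WT empty. Hoxa7 was at 0 in 2 heterozygous and 2 WT empty libraries, and the ranges overlapped; the gene did not pass the filter on low counts and was not tested. Hoxa9 (chr6:52223097-52227370) had 3 reads in all, 1 in library 1 of Het G173R and 2 in library 2 of Het R525H. Hoxa10 (chr6:52231197-52240854) had 0 counts in each library, which allows up to 3 counts per library, or 0.061 to 0.136 CPM of a library's own total. These limits cover counting error only.

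The homeoboxes of Hoxb8, which had RNA, and Hoxa10, which had no counts, show how far reads of this pair can be told apart. No other Hox gene is compared here. Both homeoboxes are given as coding sequence from GENCODE M21 (GRCm38), 180 bases each. Capitals mark the longest run that they share.
Hoxb8: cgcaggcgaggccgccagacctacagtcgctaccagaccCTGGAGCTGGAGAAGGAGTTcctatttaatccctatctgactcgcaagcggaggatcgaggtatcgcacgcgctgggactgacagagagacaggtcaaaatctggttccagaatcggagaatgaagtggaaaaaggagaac
Hoxa10: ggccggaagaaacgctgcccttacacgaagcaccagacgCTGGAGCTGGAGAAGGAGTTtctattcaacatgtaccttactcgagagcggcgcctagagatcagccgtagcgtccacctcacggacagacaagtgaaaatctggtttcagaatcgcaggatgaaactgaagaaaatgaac
The homeoboxes were identical at 116 bases, or 64.4 percent. The longest shared run was 20 bases, and no longer run was shared between any annotated transcripts of these genes. Hoxb8 expected counts were whole numbers in all 15 libraries.

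The files also list for each library the length RSEM used for a gene, which is the mean of its transcripts weighted by their estimated abundance. For Hoxb8 it was 921 to 1038 bases. GENCODE M21 gives the gene 3 transcripts, of 2635, 1141 and 664 bases; the shortest is incomplete, and the longer ones hold the same open reading frame of 732 bases. If the files used these models, the transcript of 2635 bases made up at most 13.1 to 19.0 percent of Hoxb8 RNA in a library, and the groups overlapped. The annotation of the files is not that of M21, but Hoxa9 and Hoxa10 had listed lengths of 1500.6 and 1689.0 bases where they had no counts, the plain means of their M21 transcripts. RNA from the immortalizing construct and from the cell's own Hoxb8 gene cannot be told apart in a gene-level count. Esr1, the mouse estrogen receptor gene, had 0.56 to 1.06 TPM in the 15 libraries; which receptor sequence the construct holds is not stated.

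**Figure D2:**
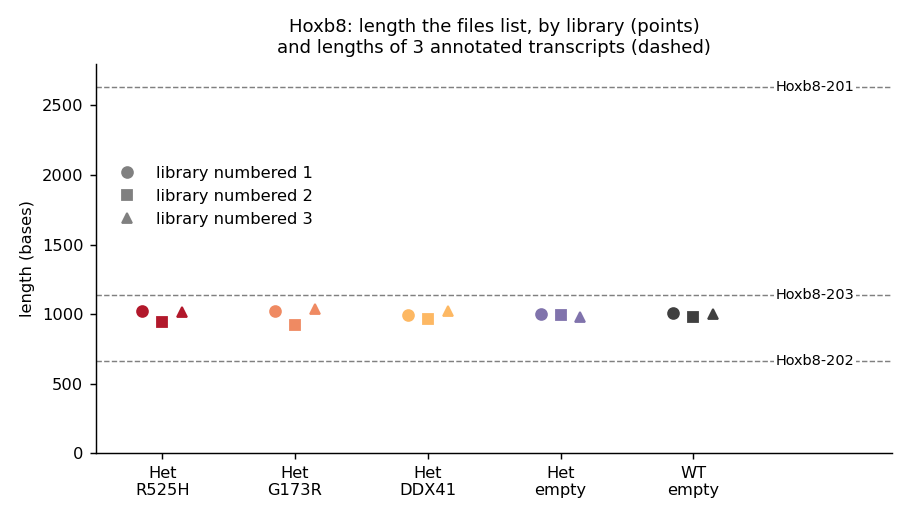
Length in bases that the files list for Hoxb8 in each of 15 libraries (points, by group and library number), with the lengths of 3 GENCODE M21 transcripts as dashed lines. All points lie between 921 and 1038 bases, between the models of 664 and 1141 bases and far below that of 2635 bases.

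Per length, Myb was the most abundant member in every library and Pbx3 the lowest of the 5 with RNA, with Hoxb8 and Hlf above Meis1 between them. Myb had 145 to 231 TPM over the 15 libraries, Hoxb8 23.1 to 45.1, Hlf 22.1 to 41.7, Meis1 10.9 to 24.2 and Pbx3 3.80 to 10.9. The ranges of Hoxb8 and Hlf overlapped for most of their extent and those of Hlf and Meis1 at the edge, while Pbx3 and Meis1 did not overlap. The tests below use CPM with TMM scaling, since TPM ran higher in WT empty for several members: Myb averaged 180 ± 31 TPM in Het empty and 209.7 ± 18.2 TPM in WT empty, but 620 ± 75 CPM in Het empty and 627 ± 56 CPM in WT empty (SD, n = 3 each). Only Hoxb8, Meis1, Pbx3, Hlf and Myb passed the filter and were tested.

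**Figure D3:**
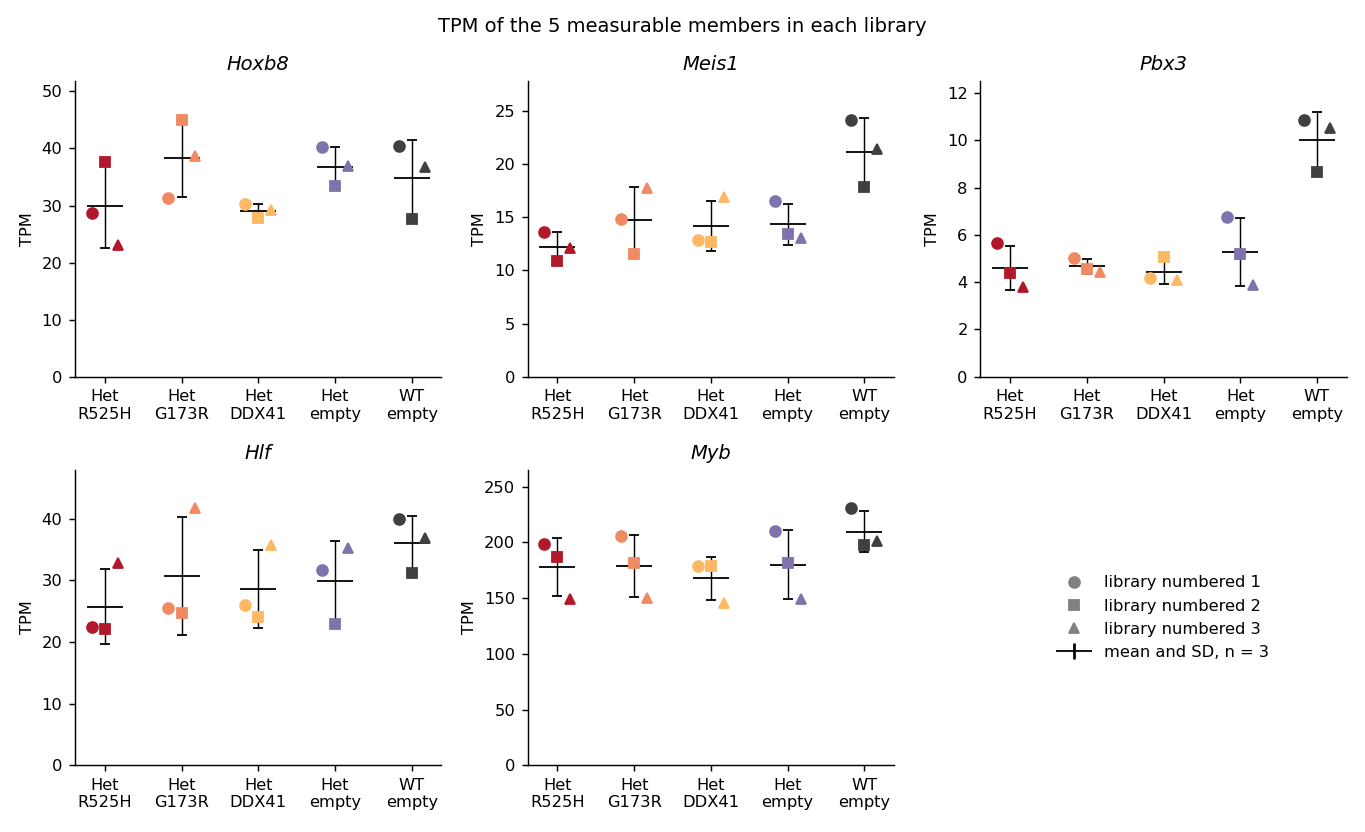
TPM of Hoxb8, Meis1, Pbx3, Hlf and Myb in each of 15 libraries; symbols give the library number, and bars the mean and SD of 3 libraries. Pbx3 is lower in all 12 heterozygous libraries (3.80 to 6.75 TPM) than in the 3 of WT empty (8.65 to 10.9 TPM), and Myb is lowest in library 3 of each heterozygous group.

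Pbx3, a TALE partner of Hox proteins, was lower in the heterozygous line, in all 12 of its libraries. In bulk RNA of these sorted cells, fewer cells of a type and less RNA per cell cannot be told apart. The gene lies at chr2:34171457-34372045 (GRCm38.p6). In the order of libraries 1 to 3, it had 12.2, 11.49 and 9.26 CPM in Het R525H, 12.3, 11.96 and 11.3 in Het G173R, 11.6, 13.0 and 10.6 in Het DDX41, 15.9, 14.3 and 10.1 in Het empty, and 21.5, 20.9 and 21.3 in WT empty. Every heterozygous library was below every library of WT empty, as in 3.92 percent of all tested genes, and the 4 heterozygous groups overlapped one another. Averaged over the heterozygous groups the level was 56.5 percent of that in WT empty, with a log2 difference of -0.82 (SE 0.11; adjusted p = 0.00028 by edgeR's quasi-likelihood test). With empty vector alone Pbx3 averaged 13.4 ± 3.0 CPM in Het empty and 21.2 ± 0.3 in WT empty (SD, n = 3 each), with a log2 difference of -0.66 (SE 0.15, adjusted p = 0.0235). Both comparisons use the same WT empty libraries. The first call held under each alternative tried, with adjusted p between 1.04e-09 and 0.00282. The second held without library 1 of Het empty (adjusted p = 0.0156) but was lost without any other single library of the 2 groups (adjusted p 0.0605 to 0.0771) and when only these groups were fitted (0.0743). Within library numbers 1, 2 and 3, the log2 difference of Het empty from WT empty was -0.43, -0.54 and -1.07, and with libraries 1 and 2 alone it was -0.48 (adjusted p = 0.0104).

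Meis1, the TALE factor that cooperates with Hoxa9, was lower on average in the heterozygous line, but by less and with overlap. It lies at chr11:18880428-19019651 (GRCm38.p6). It had 41.8, 36.0 and 41.5 CPM in Het R525H, 45.8, 40.7 and 55.7 in Het G173R, 42.5, 41.9 and 58.2 in Het DDX41, 49.6, 44.3 and 45.1 in Het empty, and 66.3, 53.7 and 56.2 in WT empty. Library 3 of Het DDX41 and of Het G173R reached into the WT empty range, and the other 10 heterozygous libraries lay below it. The mean of the heterozygous groups was 76.8 percent of that in WT empty, with a log2 difference of -0.38 (SE 0.11, adjusted p = 0.0483). That call sat at the threshold. It was lost with RLE scaling (adjusted p = 0.056) and without any 1 of 13 of the 15 libraries (0.0546 to 0.37). Among the fits that left 1 library out, it was kept only without library 3 of Het DDX41 (0.0157) or of Het G173R (0.0182). With no filter, with the library number as a block, with limma voom and with DESeq2, Meis1 stayed called. With libraries 1 and 2 alone the difference was -0.49 (adjusted p = 0.00368). For empty vector alone the log2 difference was -0.34 (95 percent interval -0.65 to -0.04, adjusted p = 0.319), with the 3 libraries of Het empty below the 3 of WT empty, as in 8.82 percent of tested genes.

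Of the 5 members tested, Meis1 and Pbx3 were thus called lower and none higher in the heterozygous line as a whole, where 7.67 percent of all tested genes were called and 4.21 percent of all tested genes were called lower. With empty vector alone 1 of 5, Pbx3, was called, against 3.66 percent of tested genes. With the library number as a block, 2539 genes of the whole table were called for the heterozygous groups together, against 1116 without it, and 1352 for empty vector alone, against 532. The median log2 difference of the 5 tested members was -0.08 over all heterozygous groups, beside -0.01 over all tested genes. In an F test for any difference among the 5 groups, 3.7 percent of genes were called, and Pbx3 passed (adjusted p = 0.0052). Meis1 passed only with the block (0.0223, against 0.255 without) or with libraries 1 and 2 alone (0.0319). Hlf passed only with libraries 1 and 2 alone (0.0371, against 0.986 with all libraries).

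For Hoxb8 itself no difference between the lines was detectable. It had 24.6, 30.0 and 20.1 CPM in Het R525H, 27.2, 38.5 and 33.2 in Het G173R, 26.1, 23.2 and 26.0 in Het DDX41, 32.1, 30.2 and 32.5 in Het empty, and 29.0, 22.8 and 25.8 in WT empty. The 3 libraries of Het empty lay above those of WT empty by a narrow margin, as in 8.33 percent of tested genes, while the other heterozygous groups overlapped WT empty. The log2 difference was 0.13 for the heterozygous groups together (95 percent interval -0.12 to 0.39, adjusted p = 0.597) and 0.29 for empty vector alone (-0.03 to 0.60, adjusted p = 0.523). A change of the size seen for Pbx3, in either direction, lies outside the first interval.

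Between vectors Hoxb8 gave the smallest unadjusted p-values of the members, and none passed the adjustment over all genes. Its log2 difference was -0.40 for Het R525H over Het G173R (unadjusted p = 0.0171, adjusted p = 0.604), 0.39 for Het G173R over Het DDX41 (0.0185, adjusted p = 1), -0.34 for Het R525H over Het empty (0.0373, adjusted p = 0.98) and -0.33 for Het DDX41 over Het empty (0.0403, adjusted p = 1). All Het R525H libraries lay below those of Het empty, as in 5.22 percent of all tested genes, by a narrow margin (30.02 against 30.19 CPM). All of Het DDX41 lay below Het empty, as in 3.33 percent, and all of Het G173R lay above Het DDX41, as in 2.83 percent. No member was called in any of the 6 vector comparisons, where edgeR called 0.0825 percent of genes for Het R525H over Het G173R, 0.0137 percent for Het R525H over Het empty and 0.0 percent in the other 4. By group, Hoxb8 averaged 24.9 ± 5.0 CPM in Het R525H, 32.9 ± 5.7 in Het G173R, 25.1 ± 1.7 in Het DDX41, 31.6 ± 1.3 in Het empty and 25.9 ± 3.1 in WT empty (SD, n = 3 each). By mean, Het R525H and Het DDX41 were thus lowest, next to WT empty, and Het empty and Het G173R highest. Single libraries overlapped across this order, and the F test among the 5 groups did not call Hoxb8 (adjusted p = 0.34).

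**Figure D4:**
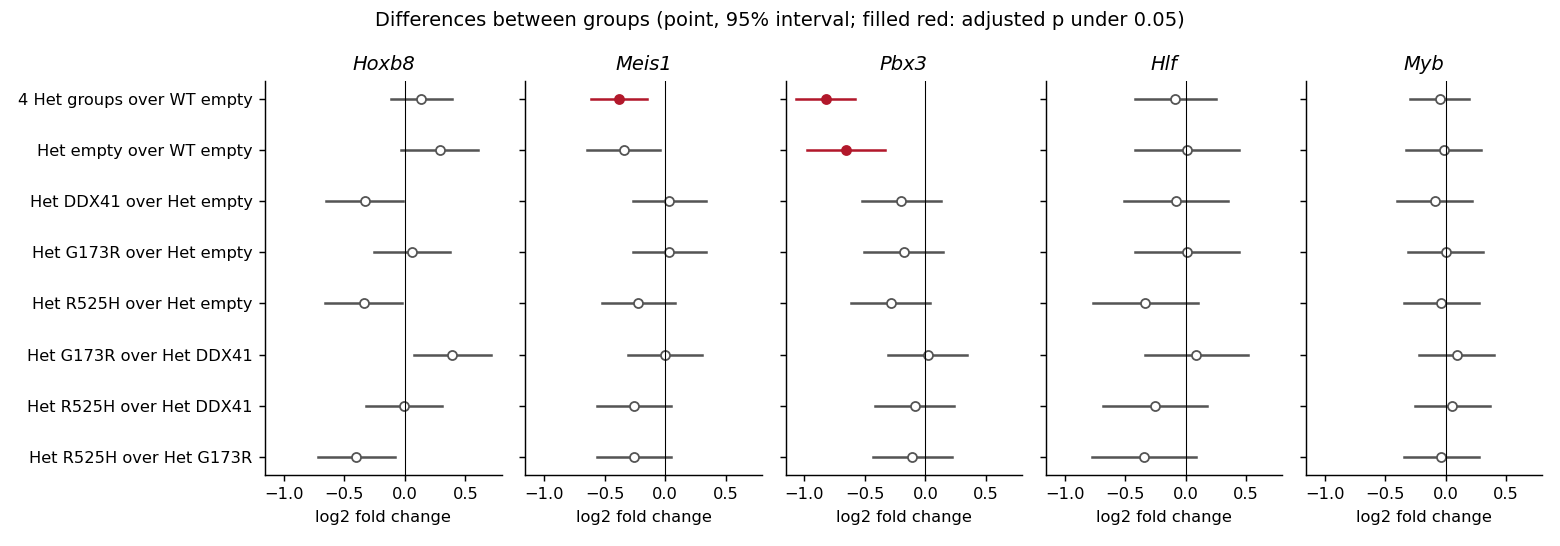
Log2 fold change of 5 members in 8 comparisons, with 95 percent intervals; filled red points have an adjusted p under 0.05. Only Pbx3, in both comparisons with WT empty, and Meis1, in the one over all heterozygous groups (-0.38), are filled.

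For Meis1 and Pbx3 too, no vector moved the level past the test. Pbx3 averaged 10.98 ± 1.5 CPM in Het R525H, 11.9 ± 0.5 in Het G173R, 11.7 ± 1.2 in Het DDX41 and 13.4 ± 3.0 in Het empty (SD, n = 3 each). Wild-type DDX41 over empty vector gave a log2 difference of -0.20 for Pbx3 (95 percent interval -0.52 to 0.13) and 0.04 for Meis1 (-0.27 to 0.34). For Pbx3 a rise as large as the gap between Het empty and WT empty lies outside this interval, and for Meis1 the interval ends at about that gap. In the same comparison Ddx41 had a log2 difference of 0.13 (95 percent interval -0.12 to 0.37). For G173R and R525H over empty vector it was 0.13 and 0.08. Whether the vectors' DDX41 was expressed was not tested. Meis1 averaged 39.8 ± 3.3 CPM in Het R525H, the lowest group mean, against 46.3 ± 2.8 in Het empty (log2 -0.22, 95 percent interval -0.525 to 0.08, adjusted p = 1). All its Het R525H libraries lay below all of Het empty, as in 5.22 percent of tested genes. Its Het R525H libraries also lay below all of Het DDX41 (log2 -0.26, adjusted p = 1), as in 5.51 percent of tested genes. The margin there was narrow, with 41.79 CPM as the highest in Het R525H and 41.88 CPM as the lowest in Het DDX41.

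Hlf and Myb showed no called difference between the 2 lines when all libraries were fitted, and they differed by library number. Hlf (chr11:90336535-90390917) had 113, 104 and 158 CPM in Het R525H, 137, 139 and 199 in Het G173R, 132, 129.6 and 185 in Het DDX41, 155, 126 and 190.1 in Het empty, and 159, 151 and 157 in WT empty. Library 3 was the highest in each heterozygous group, while the WT empty libraries lay between 151 and 159 CPM. Myb (chr10:21124930-21160984) had 643, 649 and 519.7 CPM in Het R525H, 685, 686 and 488 in Het G173R, 618, 625 and 502 in Het DDX41, 660.2, 666 and 533 in Het empty, and 651, 668 and 564 in WT empty. Library 3 was the lowest for Myb in all 5 groups, and no library numbered 3 reached the range of those numbered 1 and 2 (488 to 564 against 618 to 686 CPM); being lowest in all 5 groups holds for 14.9 percent of tested genes.

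In a fit with group and number as terms, libraries numbered 3 had more Hlf than the mean of those numbered 1 and 2 by 0.41 on the log2 scale (SE 0.06, adjusted p = 0.000176) and less Myb by a log2 difference of -0.33 (SE 0.04, adjusted p = 1.24e-05). Pbx3 was also lower (log2 -0.24, adjusted p = 0.0205), a call lost without library 3 of Het empty, Het DDX41 or Het R525H (adjusted p = 0.0916, 0.1 and 0.0701). So 3 of the 5 tested members were called by number, beside 46.1 percent of all tested genes, and Meis1 (log2 0.16, adjusted p = 0.0719) and Hoxb8 (log2 -0.05, adjusted p = 0.698) were not. Meis1 was called as higher in number 3 with DESeq2 (adjusted p = 0.0452) and without library 1 or 3 of WT empty (0.0283 and 0.0192) or library 3 of Het empty (0.0276). The Myb relative Mybl2 fell and the Hlf relatives Tef and Nfil3 rose with library number 3, by log2 differences of -0.33, 0.65 and 0.42 (adjusted p = 0.00338, 7.59e-07 and 0.00123). Of the 5 relatives tested 2 were thus called higher and 1 lower, and the others were not called, where 46.1 percent of all tested genes were called. Of 6 other TALE genes tested, 1 was called higher and 4 lower in number 3. For 21 tested regulators of Hox genes these counts were 3 and 8, and for 20 tested reported targets 5 and 12. Between the lines the log2 difference of Hlf was -0.08 over all heterozygous groups (95 percent interval -0.42 to 0.25) and that of Myb -0.05 (-0.29 to 0.19); with libraries 1 and 2 alone that of Hlf was -0.26, with an adjusted p of 0.0299.

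No other TALE gene passed the test between the lines. Of 9 such genes 6 were tested. Their median log2 difference over all heterozygous groups was 0.02, beside -0.01 for all tested genes, of which 7.67 percent were called. Pbx2, the most abundant Pbx gene, averaged 25.2 TPM in Het R525H, 25.3 in Het G173R, 25.8 in Het DDX41, 26.5 in Het empty and 27.03 in WT empty (log2 0.02 over all heterozygous groups by CPM, SE 0.10, adjusted p = 0.951). Pknox1, a relative of Meis1, had a log2 difference of 0.01 (SE 0.09, adjusted p = 0.961). Pbx4 had 3.53 to 8.30 TPM over the 15 libraries, against 3.80 to 10.9 TPM for Pbx3 and 19.4 to 30.5 TPM for Pbx2. Of 5 relatives of Hlf and Myb, Mybl1, a Myb family factor known mainly from germ cells, fell and none rose: it had 4.36 ± 0.54 CPM in the heterozygous libraries and 6.72 ± 0.61 in WT empty (log2 -0.62, adjusted p = 0.00647), and the call was lost without library 3 of WT empty (0.0578). With empty vector alone Mybl1 was also called (log2 -0.67, adjusted p = 0.0393), but not without any single library (0.0702 to 0.157), with no filter (0.109), with libraries 1 and 2 alone (0.0946) or with only these groups fitted (0.0636).

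Of 24 chromatin and upstream regulators of Hox genes, such as the Kmt2a and Polycomb complexes, 21 were tested. Over all heterozygous groups 1 rose and none fell, where 7.67 percent of all tested genes were called. Npm1, a nucleolar chaperone whose mutated form raises Hox genes in human leukemia, had 2740 ± 178 CPM in the heterozygous libraries and 2360 ± 116 CPM in WT empty (log2 0.21, SE 0.06, adjusted p = 0.0345), with overlap; it has many processed pseudogenes, and how reads were split with them is not stated. In TPM, Npm1 averaged 2199 in Het R525H, 1893 in Het G173R, 2003 in Het DDX41, 1919 in Het empty and 1963 in WT empty. Het G173R and Het empty were thus not higher than WT empty in that unit. The call by CPM was lost without any 1 of 8 libraries (WT empty 1 and 3, Het empty 2 and 3, Het DDX41 1 and 2, Het G173R 1 and 2; adjusted p 0.0511 to 0.171) and with no filter on low counts (0.118). The caudal genes Cdx1, Cdx2 and Cdx4, which switch on Hox genes in early blood development, were not tested, and none exceeded 0.05 TPM in any library.

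Among 21 genes reported as targets of Hox proteins, Meis1 or Myb in blood or leukemic cells, 20 were tested. Over all heterozygous groups 4 fell and 2 rose, where 7.67 percent of all tested genes were called. Their median log2 difference was 0.05. Flt3, the receptor kinase gene reported to be raised by Hoxa9 and Meis1, had 235 ± 29 CPM in the heterozygous libraries and 366 ± 25 CPM in WT empty (SD, n = 12 and 3; log2 -0.65, SE 0.07, adjusted p = 1.96e-05). Trib2, a pseudokinase gene reported as a Meis1 target, had 4.41 ± 0.73 and 8.68 ± 2.23 CPM in the same order (log2 -0.99, adjusted p = 0.000663). In both genes every heterozygous library lay below every WT empty library, as in 3.92 percent of tested genes. Both calls held under each alternative tried. Kit, the stem cell factor receptor, and Bcl2, which blocks cell death, fell by 0.22 and 0.34 on the log2 scale (adjusted p = 0.0125 and 0.0112). The Kit call was lost without library 2 or 3 of WT empty (0.0651 and 0.0737) and with no filter (0.0646), and the Bcl2 call without library 1 of WT empty (0.101).

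Of the targets that rose, Elane, the neutrophil elastase gene, had 10.1 ± 4.8 CPM in the heterozygous libraries and 2.41 ± 1.22 CPM in WT empty (SD, n = 12 and 3; log2 2.04, adjusted p = 0.0434), with overlap, and its call was lost with limma voom (0.138) and without any 1 of 11 libraries (0.0606 to 0.189), that is without any library but those numbered 3 of the heterozygous groups. It was also lower in libraries numbered 3 (log2 -1.62, adjusted p = 2.68e-07). The other called target that rose is not reported here. Eya1, a transcriptional coactivator, was not called, with 39.9 ± 10.2 CPM in the heterozygous libraries and 27.6 ± 1.3 CPM in WT empty (log2 0.51, adjusted p = 0.0985). With empty vector alone Flt3 and Trib2 were called in the same direction. Kit, Flt3 and Cd34 are also on the list of progenitor markers. Cd34, Cdk6, Erg and Sox4, further reported targets with much RNA, had log2 differences between -0.10 and -0.05 over all heterozygous groups, with adjusted p from 0.671 to 0.854 for Cd34, Cdk6 and Sox4 and 0.524 for Erg.

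**Figure D5:**
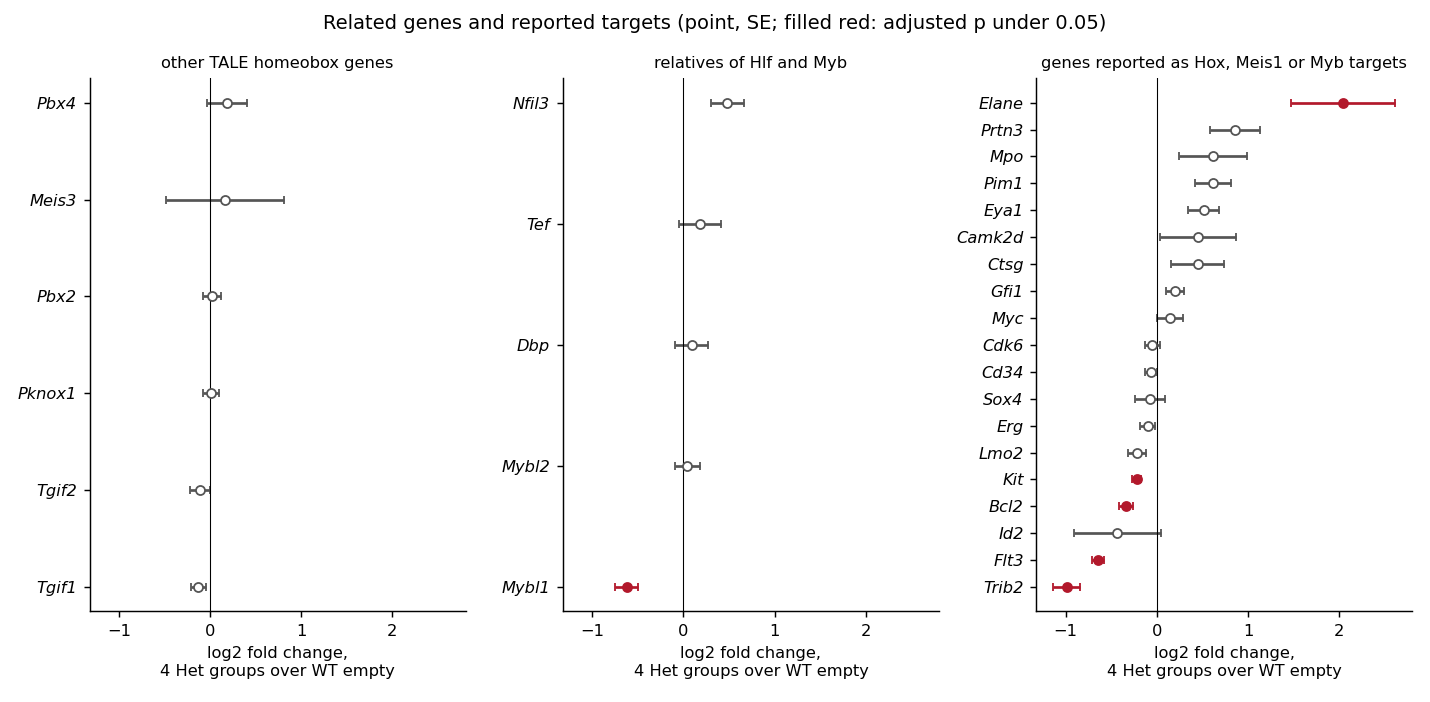
Log2 fold change with SE of tested TALE genes, relatives of Hlf and Myb, and reported targets, for the 4 heterozygous groups over WT empty; filled red points have an adjusted p under 0.05. The TALE genes lie near 0, and among the targets shown Trib2 (-0.99) and Elane (2.04) mark the ends.

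By likeness of pattern, the genes closest to Pbx3 over the 15 libraries were Aim2, Sp100 and Ankrd50, with a root mean square difference in centred log2 CPM of 0.137, 0.138 and 0.149, where the median gene of 9087 compared had 0.403. Aim2, a sensor of cytosolic DNA, had 9.68 to 14.04 CPM in the heterozygous libraries and 23.1 to 23.5 CPM in WT empty. Sp100, a nuclear body protein gene, had 14.3 to 20.7 and 25.3 to 28.2 CPM in the same order, and Ankrd50 134.5 to 200.9 and 250.4 to 265.1 CPM. Like Pbx3, each was below WT empty in all 12 heterozygous libraries, which holds for 3.92 percent of tested genes. This is a description of 3 genes picked for their likeness, with no test.

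Markers of other blood cells differed between the lines as well, where 7.67 percent of all tested genes were called over all heterozygous groups. Calls rest on CPM. The summed levels are in TPM, which ran higher in WT empty for several members, and were not tested. Of 8 mast cell and basophil markers 6 were tested, and 4 fell and none rose over all heterozygous groups; their summed level was 58.1 to 89.9 TPM in the heterozygous libraries and 112 to 139.7 TPM in WT empty, with Fcer1a and Tpsb2 at 0 throughout. Of 10 neutrophil markers 9 were tested, 1 rose and 1 fell; the summed level was 40.8 to 74.6 TPM in the heterozygous libraries and 109 to 118 TPM in WT empty, although the median log2 difference was 0.95. That gap lay in Mmp8: without it the sums were 28.15 to 71.0 TPM in the heterozygous libraries and 26.8 to 43.9 TPM in WT empty, which overlap. Of 12 progenitor markers, which check the labelled cell type, 11 were tested, 1 rose and 4 fell; all but Cd48 (at most 0.16 TPM) had RNA in every library, with Cd34 at 500.79 TPM or more, and their sum was 795 to 1028 TPM in the heterozygous libraries and 1075 to 1166 TPM in WT empty. Cd34 was not called between the lines by CPM. Without it the progenitor sums were 294 to 375 TPM and 394 to 439 TPM, heterozygous libraries first. Of monocyte markers 3 rose and 2 fell of 7 tested, and of both erythroid and lymphoid markers 2 fell of 6 tested. Monocyte markers summed to 100 to 164 TPM and 149 to 233 TPM, lymphoid markers to 19.8 to 34.6 and 37.1 to 41.1 TPM, and erythroid markers to 172 to 206 and 205 to 241 TPM, heterozygous libraries first in each pair. Without Adgre1 the monocyte sums were 56.6 to 90.2 TPM in the heterozygous libraries and 51.7 to 69.1 TPM in WT empty. Nearly all of the erythroid sum was Tfrc, the transferrin receptor gene of dividing cells, and without it the sums were 2.70 to 6.72 and 6.17 to 8.59 TPM in the same order. Without Cd79b the lymphoid sums were 15.05 to 28.7 and 22.7 to 27.9 TPM. The hepatocyte markers Alb, Ttr and Serpina1a had 0 counts in all libraries, the only one tested was not called, and the list summed to at most 0.87 TPM. Of 8 endothelial and stromal markers 3 were tested and 2 fell. The sum was 12.6 to 19.5 TPM in the heterozygous libraries and 23 to 28.8 TPM in WT empty, with Cdh5, Col1a1 and Dcn at 0. Most of that sum was Pdgfrb, and without it the sums were 1.81 to 4.97 and 4.98 to 7.69 TPM in the same order. The part of these shifts in the lower Pbx3 and Meis1 was not tested.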

How the data were processed

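RNA of 15 samples was sequenced after stranded total RNA library preparation with ribosomal RNA reduction, per the labels' protocols. The authors deposited 1 RSEM gene table per sample (named so in the submitters' processing notes, with columns of that tool per the file headers); aligner, build and annotation were not given in the sources used. The deposited tables hold expected counts, which are estimates of reads per gene and were not normalized, TPM (scaled by the authors to length and library) and the transcript length in bases. After rounding, these counts entered edgeR 4.0.16 under R 4.3.3 (filterByExpr, TMM, 1 quasi-likelihood fit of group over all 15 libraries, Benjamini-Hochberg adjustment over 14548 genes, called under 0.05); limma 3.58.1 and DESeq2 1.42.0 served as alternatives. Other settings were RLE scaling, no filter, only the groups compared, the library number as a block, libraries 1 and 2 only, and each library left out; the contrast of library number 3, the alternatives of the F test and the marker sums without 1 gene were added after seeing the data. Script steps were tested on simulated data. Levels are TMM-scaled CPM, and SEs come from dividing a log2 difference by the root of its F.

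The 8 members, the gene lists and the tests were chosen with earlier results of these data known. Text names all members, Ddx41, up to 5 called genes per list of related genes, and the 3 genes most like a member called in the F test; Pbx2, Pknox1, Pbx4, Tef, Nfil3, Mybl2, Eya1, Elane, Cdk6, Cd34, Erg, Sox4, the Cdx genes and the cell markers were named after their values were seen. Counts of the same number were checked for pairing by the correlation over genes of deviations from group means: all were above 0.1 for the heterozygous line against WT empty (0.237 to 0.503 together, 0.358 to 0.49 with empty vector) and for 4 vector comparisons, so the block is given there; what a number stands for is not stated. Loci come from RefSeq (GRCm38.p6), homeoboxes and transcript models from GENCODE M21. Some listed genes and sequences are not reported here.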

Additional observations from a re-analysis of the deposited data

How the results depend on the processing

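The fall of Pbx3 over all heterozygous groups held under each alternative, with log2 differences from -0.862 to -0.725. With libraries 1 and 2 only, genes called were 1068 with empty vector, 2087 over all heterozygous groups, 19 for Het R525H over Het empty, 14 over Het DDX41, 38 over Het G173R, 1 for Het G173R over Het DDX41 and 1062 in the F test, where 3 members passed. With the replicate block they were 1352, 2539, 63, 59, 141, 1 and 1762, and 2 members passed the F test, Meis1 being the call of a named gene that the block changed; pairing by number was not met for Het DDX41 and Het R525H over Het empty (lowest correlations -0.027 and 0.0676). DESeq2 called 804 with empty vector, 3 for Het DDX41 and 3 for Het G173R over Het empty, 60 for Het R525H over Het empty, 4, 35 and 119 for the later vector pairs and 1153 in the F test. Without the filter Het R525H over Het empty had 5 calls. With only the groups compared fitted, no member was called with empty vector and no gene for Het R525H over Het empty or over Het G173R; with RLE 1 member was called over all heterozygous groups. Beside the calls of 0 for Het DDX41 and Het G173R over Het empty, 254 and 88 genes had an unadjusted p under 0.05, and beside those for Het G173R and Het R525H over Het DDX41 224 and 581.

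Leaving out 1 library gave 372 to 459 genes with empty vector (0 to 1 member), 698 to 1336 over all heterozygous groups (1 to 2), 0 to 3 for Het R525H over Het empty, 0 to 2 over Het DDX41, 0 to 8 over Het G173R and 326 to 597 in the F test.

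Signs turned only for differences that were not called. With libraries 1 and 2 they were -0.13 for Hlf and 0.015 for Myb with empty vector, -0.16 for Meis1 in Het DDX41 and -0.124 and -0.035 for Meis1 and Hlf in Het G173R over Het empty, 0.034 and -0.015 for Meis1 and Pbx3 in Het G173R over Het DDX41, and 0.145 for Hoxb8 in Het R525H over Het DDX41. With limma voom they were -0.006 for Hlf with empty vector, -0.011 for Myb in Het G173R over Het empty, 0.013 for Meis1 and -0.009 for Ddx41 in Het G173R over Het DDX41, and 0.003 for Hoxb8 in Het R525H over Het DDX41. For Myb in Het G173R over Het empty the block gave -0.008, no filter -0.003 and the groups alone -0.002; Hlf with empty vector was -0.013 with the block, and Ddx41 in Het G173R over Het DDX41 -0.003 with no filter. Leaving out 1 library, log2 differences crossed 0 in these cases: in Het G173R over Het DDX41 they ran from -0.069 to 0.12 for Ddx41, -0.112 to 0.307 for Hlf, -0.137 to 0.197 for Meis1 and -0.025 to 0.097 for Pbx3. Het R525H over Het DDX41 gave -0.104 to 0.022 for Ddx41, -0.167 to 0.122 for Hoxb8, -0.021 to 0.151 for Myb and -0.17 to 0.016 for Pbx3. Het R525H over Het G173R gave -0.165 to 0.024 for Ddx41 and -0.182 to 0.06 for Myb. Het DDX41 over Het empty gave -0.281 to 0.076 for Hlf and -0.148 to 0.111 for Meis1. Het G173R over Het empty gave -0.199 to 0.166 for Hlf, -0.066 to 0.171 for Hoxb8, -0.109 to 0.133 for Meis1 and -0.105 to 0.136 for Myb. Het empty over WT empty gave -0.143 to 0.159 for Hlf and -0.086 to 0.081 for Myb. The contrast of number 3 against 1 and 2 gave -0.092 to 0.039 for Hoxb8. Het R525H over Het empty gave -0.142 to 0.051 for Myb. The cause was not tested. Precision is limited by 3 libraries a group and, for the Hoxa genes, by the few counts.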
